A study of Homo sapiens with 24 samples.

Results

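The genes described here are the nuclear genes whose symbols begin with MRPL or MRPS followed by a number, which name the proteins of the large and the small subunit of the mitochondrial ribosome. Of 25365 rows in the deposited table, 77 had such a symbol and 76 reached 1 FPKM (fragments per kilobase of transcript, scaled to the mapped fragments) in at least 3 of 24 libraries, the level asked of a member. The members were chosen by symbol and level and not by their response to drug or genotype, though earlier results of these data were known when the set was chosen. The libraries came from HCC4006 and PC9, a pair of human lung adenocarcinoma cell lines with activating EGFR mutations. In each line there were 4 groups of 3 libraries, which were YAP1 KO cells under OT, YAP1 KO cells under DMSO, CTRL cells under OT and CTRL cells under DMSO. OT is 100 nM osimertinib, an inhibitor of mutant EGFR, given together with 30 nM trametinib, an inhibitor of the kinases MEK1 and MEK2, and it was applied for 24 hours. YAP1 is a coactivator that the Hippo pathway holds out of the nucleus. The labels name 1 knockout and 1 control background per line and do not say whether either was a clone or a pool. Column names mark the knockout as YAP30 in HCC4006 and YAP14 in PC9, and mark as NOTX the libraries that the titles call DMSO. The labels number the replicates without saying whether these were separate cultures, so p-values measure only the spread between these libraries, which may be technical.

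The mitochondrial ribosome translates the few messages encoded in mitochondrial DNA, all of which specify subunits of the respiratory chain and the ATP synthase. Its RNA is made inside the organelle, whereas every one of its proteins is encoded in the nucleus, made in the cytosol and imported. Some proteins have counterparts in the bacterial ribosome, and others were added during the evolution of mitochondria. NRF1, the ETS factor GABP and YY1 are the transcription factors best known for acting on the promoters of nuclear genes with mitochondrial products.

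The knockout was visible in the gene it targeted. YAP1 averaged 6.13 ± 0.190 FPKM under OT and 4.24 ± 0.344 FPKM under DMSO in HCC4006 YAP1 KO cells, against 15.5 ± 1.51 and 18.2 ± 1.62 FPKM in CTRL cells (SD, n = 3 each). In PC9 the YAP1 KO cells held 11 ± 0.841 FPKM under OT and 12.1 ± 0.398 FPKM under DMSO, against 34.2 ± 0.371 and 42.9 ± 0.415 FPKM in CTRL cells. Fragments of a disrupted message can still be counted, so these levels do not measure protein. The epithelial marker EPCAM lay between 240 and 375 FPKM in all libraries. The sum of the 5 epithelial markers EPCAM, CDH1, KRT8, KRT18 and KRT19 was less steady. It was 1606 to 1616 FPKM under OT against 2379 to 2429 FPKM under DMSO in HCC4006 YAP1 KO cells. HCC4006 CTRL cells had 1541 to 1766 against 2794 to 2948 FPKM. In PC9 it was 5042 to 5197 against 4122 to 4279 FPKM in YAP1 KO cells. PC9 CTRL cells had 6538 to 6689 against 4962 to 5100 FPKM. The fibroblast and leukocyte genes DCN, LUM, PDGFRA, PTPRC and CD3E never passed 0.281 FPKM. Other listed markers were present. CD68, a lysosomal protein used as a macrophage marker, had 106 to 108 FPKM under OT against 20.9 to 23.2 FPKM under DMSO in HCC4006 YAP1 KO cells, and 81.5 to 83.6 against 21.4 to 23.7 FPKM in HCC4006 CTRL cells. The sum of the 5 fibroblast markers, mostly the collagen genes COL1A1 and COL1A2, was 7.28 to 7.71 against 2.38 to 2.69 FPKM in HCC4006 YAP1 KO cells and 19.3 to 20.4 against 3.53 to 3.89 FPKM in HCC4006 CTRL cells. In PC9 CD68 was at 29.02 to 39.7 FPKM, the fibroblast sum was 1.36 to 2.57 FPKM, and in no library did the 3 endothelial markers sum to more than 1.09 FPKM. Their part in the results was not tested. A library's FPKM summed to between 507120 and 660459, absolute depth is unknown, and relative depth ran from 0.944 to 1.42. Replicate 1 of HCC4006 CTRL cells under OT was the deepest library and had the lowest sum. Counts and calls of named genes that changed without it are given below, with the sizes of change for some genes.

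All 76 members reached 1 FPKM in 24 of 24 libraries. The members nearest the threshold were MRPS25 at 2.59 to 13.1 FPKM, MRPL19 at 4.08 to 11 FPKM and MRPS14 at 10.3 to 16.7 FPKM. Outside it lay MRPS18B alone, which was listed at 0 in 24 of 24 libraries. Its neighbours in the genome FLOT1, TUBB and ABCF1, looked up after that value was seen, were also listed at 0 in every library, so a failed estimate cannot be told apart from a missing message. In CTRL cells under DMSO the levels, which FPKM scales for transcript length, spanned a wide range. MRPL51, a large-subunit protein without a bacterial counterpart, averaged 462 FPKM over both lines, MRPL33 averaged 362 FPKM and MRPS24 averaged 262 FPKM. The lowest means were 8.0 FPKM for MRPS25, 9.67 FPKM for MRPL19 and 14.8 FPKM for MRPS14.

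Both lines expressed less of the set under OT, and the drop was deeper in HCC4006. Summed over the 76 genes, HCC4006 YAP1 KO cells held 4183 ± 79.3 FPKM under OT against 6957 ± 100.5 FPKM under DMSO, and HCC4006 CTRL cells held 4305 ± 453 against 6907 ± 239 FPKM (SD, n = 3 each). In PC9 the sums were 5029 ± 92.1 FPKM under OT against 6585 ± 60.4 FPKM under DMSO in YAP1 KO cells, and 5493 ± 99.6 against 6523 ± 83.8 FPKM in CTRL cells. Every OT library lay below every DMSO library of its line, and the wide spread of the HCC4006 CTRL cells under OT came from replicate 1, at 3782 FPKM. The set made up 0.764% of all FPKM under OT and 1.11% under DMSO in HCC4006 YAP1 KO cells, and 0.779% against 1.07% in HCC4006 CTRL cells. The same shares were 0.880% against 1.07% in PC9 YAP1 KO cells and 0.934% against 1.06% in PC9 CTRL cells. From bulk RNA, fewer cells of a kind and less RNA per cell cannot be told apart, and a share says nothing of the RNA that a cell holds.

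**Figure D1:**
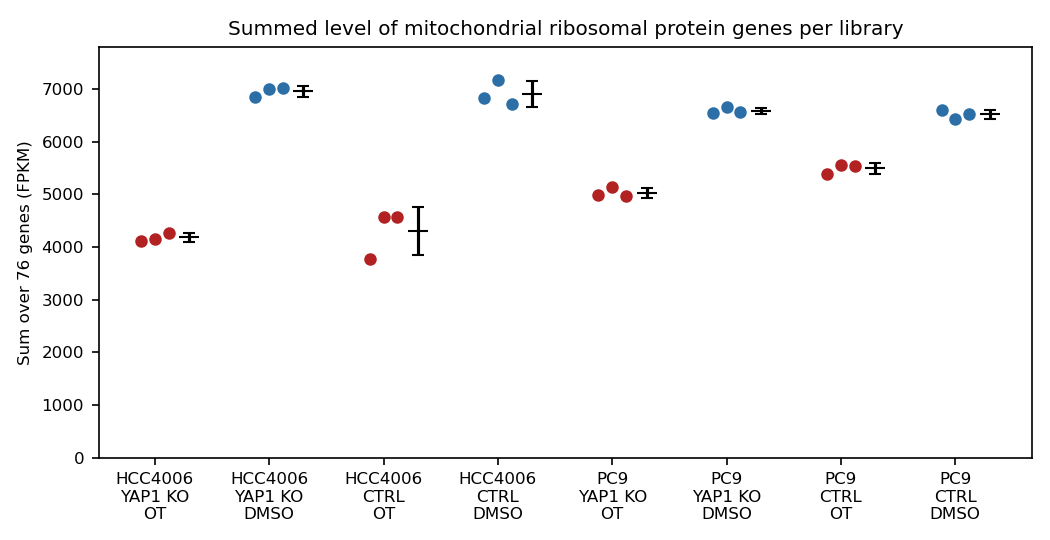
Summed FPKM of the 76 genes in each library (points, red for OT and blue for DMSO), with the mean and SD of each group of 3 beside them (black), for HCC4006 on the left and PC9 on the right. OT groups average 4183 to 5493 FPKM and DMSO groups 6523 to 6957 FPKM.

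OT against DMSO asks what the inhibition of EGFR and MEK does to these genes. In HCC4006 CTRL cells 70 of 76 genes fell and 1 rose, with limma on log2(FPKM + 1) and a Benjamini-Hochberg adjusted p under 0.05. Over all 13113 genes tested, 36.6% fell and 45.0% rose. The median change of the members was -0.73, against 0.09 for all genes tested. With a filter of 5 FPKM in place of 1 FPKM, the median of all genes was -0.01, and 49.6% of those called were higher. HCC4006 YAP1 KO cells were alike in number, with 69 lower and 2 higher (36.5% and 46.4% of all genes) and a median of -0.76 against 0.11. Among PC9 CTRL cells 57 members fell and 5 rose (40.9% and 32.0% of all 12685 genes), with a median of -0.30 against -0.04. Scaling by median of ratios raised the higher share of all genes called from OT in PC9 CTRL cells to 54.0%, against 43.9%, and gave 10 members higher and 48 lower. With every library rescaled to the same sum, that share in HCC4006 CTRL cells was 66.6%, against 55.1%, and 2 members were higher and 61 lower. PC9 YAP1 KO cells had 65 lower and 2 higher (41.4% and 36.9% of all genes), with a median of -0.38 against -0.02. In all 4 comparisons 54 of 76 genes fell, against 27.0% of the 11845 genes tested in both lines.

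The steepest falls in HCC4006 were in large-subunit proteins with bacterial counterparts. MRPL17, the counterpart of bacterial L17, had 29.1, 32.5 and 32.5 FPKM in HCC4006 CTRL cells under OT, against 92.2, 95.0 and 89.5 FPKM under DMSO. No OT library came near a DMSO library, and the log2 change was -1.53 (SE 0.0459, adjusted p = 1.97e-11). MRPL3, the counterpart of L3 beside the peptidyl transferase centre, had 45.0, 49.95 and 51.0 FPKM under OT, against 130, 139 and 137 FPKM under DMSO, a change of -1.46 (SE 0.0530, adjusted p = 1.03e-10). MRPL12, the L7/L12 stalk protein that recruits translation factors, had 62.3, 74.4 and 67.0 FPKM under OT, against 171, 199.8 and 174 FPKM under DMSO. Its groups were also far apart, with a change of -1.41 (SE 0.0706, adjusted p = 1.94e-09). In HCC4006 YAP1 KO cells MRPL17 changed by -1.57 and MRPL3 by -1.42 (adjusted p = 1.11e-11 and 1.01e-10), and MRPS6, the counterpart of small-subunit S6, was the third of the lowest, at -1.36 (adjusted p = 2.01e-08).

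PC9 had other genes at the bottom. MRPL42, a protein without a bacterial counterpart, had 8.54, 9.90 and 9.98 FPKM in PC9 CTRL cells under OT, against 19.1, 18.2 and 18.8 FPKM under DMSO, a log2 change of -0.92 (SE 0.0643, adjusted p = 7.37e-08). MRPL50, also specific to mitochondria, had 27.2, 31.4 and 31.5 FPKM under OT, against 54.9, 48.3 and 54.4 FPKM under DMSO. The groups of both genes were clear of each other, and MRPL50 changed by -0.79 (SE 0.0700, adjusted p = 6.36e-07). MRPL35 changed by -0.73 (SE 0.0610, adjusted p = 3.77e-07) and MRPL12 by -0.70 (SE 0.0262, adjusted p = 2.67e-10). MRPL12 had 114, 113 and 109.8 FPKM under OT there, against 187, 182 and 181 FPKM under DMSO. In PC9 YAP1 KO cells the 3 deepest falls were those of MRPL42 at -1.21, MRPL50 at -1.12 and MRPL12 at -1.03 (adjusted p = 3.39e-09, 1.62e-08 and 4.83e-12). MRPL42 has 6 numbered pseudogenes in RefSeq and MRPL50 and MRPL35 have 4 each, and the sources used here do not say how reads shared with such copies were counted.

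**Figure D2:**
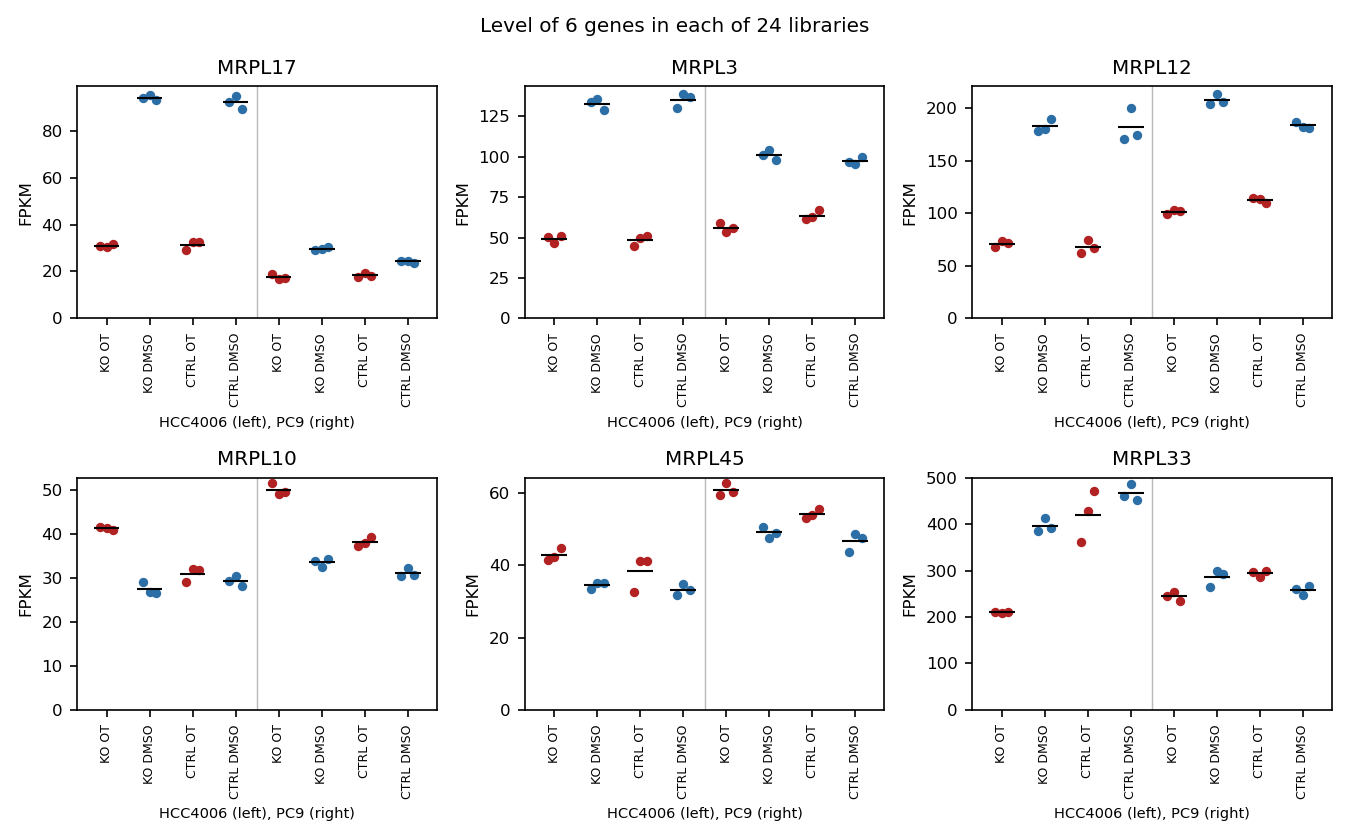
FPKM of 6 genes in every library (points, red for OT and blue for DMSO; bars mark the mean of 3), with HCC4006 left of the line in each panel and PC9 right of it, and YAP1 KO left of CTRL within a line. MRPL17, MRPL3 and MRPL12 have no OT library as high as the lowest DMSO library of the line and genotype, MRPL10 is highest in YAP1 KO cells under OT, and MRPL33 is low under OT in HCC4006 YAP1 KO cells and not in HCC4006 CTRL cells.

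The promoter windows of MRPL17, MRPL3 and MRPL12, lowest in HCC4006 CTRL cells, of MRPL42 and MRPL50, lowest in PC9 CTRL cells, and of MRPL45, the 1 member that rose in all 4 comparisons, are printed here to show which of the searched motifs the leading members hold. Each runs from 250 bases before to 50 bases after the RefSeq start of the gene in GRCh38.p14, 5′ to 3′ on the gene's strand. Capitals mark matches to 4 letter patterns searched on both strands, which were the ETS motif CCGGAAG, the NRF1 motif GCGCANGCG, the YY1 motif ANATGGCGG and the E-box CACGTG. MRPL17 (chr11:6683291-6683590, minus strand) holds NRF1 matches that begin 81, 80 and 43 bases before the start, the first 2 of them overlapping on opposite strands. MRPL3 (chr3:131502922-131503221, minus strand) holds an ETS match that begins 32 bases before it. MRPL42 (chr12:93467264-93467563, plus strand) holds a YY1 match that begins 9 bases after the start. MRPL50 (chr9:101398569-101398868, minus strand) holds one that begins 24 bases after it. MRPL12 (chr17:81703117-81703416, plus strand) holds none of the 4. MRPL45 (chr17:38296918-38297217, plus strand) holds an NRF1 match 189 bases and an E-box 133 bases before the start.
MRPL17: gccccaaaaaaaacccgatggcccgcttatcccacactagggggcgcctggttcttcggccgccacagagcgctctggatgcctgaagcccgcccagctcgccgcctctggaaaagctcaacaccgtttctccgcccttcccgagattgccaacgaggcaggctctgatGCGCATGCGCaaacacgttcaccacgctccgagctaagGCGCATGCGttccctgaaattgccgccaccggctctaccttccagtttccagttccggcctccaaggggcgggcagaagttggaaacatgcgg
MRPL3: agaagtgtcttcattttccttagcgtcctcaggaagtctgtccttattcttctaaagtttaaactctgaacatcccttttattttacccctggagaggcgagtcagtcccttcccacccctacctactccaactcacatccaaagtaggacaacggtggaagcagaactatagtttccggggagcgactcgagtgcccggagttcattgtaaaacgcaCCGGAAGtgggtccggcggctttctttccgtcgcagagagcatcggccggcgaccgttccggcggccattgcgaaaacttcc
MRPL42: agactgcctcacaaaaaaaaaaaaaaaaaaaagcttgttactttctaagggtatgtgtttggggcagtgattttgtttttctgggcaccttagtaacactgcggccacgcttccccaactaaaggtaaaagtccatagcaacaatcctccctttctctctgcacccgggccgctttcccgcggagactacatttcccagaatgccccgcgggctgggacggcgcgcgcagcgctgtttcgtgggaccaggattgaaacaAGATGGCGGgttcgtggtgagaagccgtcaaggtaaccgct
MRPL50: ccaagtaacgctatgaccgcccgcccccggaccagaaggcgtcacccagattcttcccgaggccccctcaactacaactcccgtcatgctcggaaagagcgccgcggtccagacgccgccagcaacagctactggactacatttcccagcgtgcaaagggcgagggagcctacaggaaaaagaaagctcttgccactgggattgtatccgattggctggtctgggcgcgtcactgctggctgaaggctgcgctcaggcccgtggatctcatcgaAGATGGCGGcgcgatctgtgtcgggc
MRPL12: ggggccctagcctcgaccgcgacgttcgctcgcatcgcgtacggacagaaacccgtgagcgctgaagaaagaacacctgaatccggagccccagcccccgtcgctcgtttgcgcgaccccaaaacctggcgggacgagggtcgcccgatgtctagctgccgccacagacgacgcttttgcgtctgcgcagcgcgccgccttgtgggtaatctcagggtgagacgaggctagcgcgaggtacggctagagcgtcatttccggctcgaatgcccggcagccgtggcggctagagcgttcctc
MRPL45: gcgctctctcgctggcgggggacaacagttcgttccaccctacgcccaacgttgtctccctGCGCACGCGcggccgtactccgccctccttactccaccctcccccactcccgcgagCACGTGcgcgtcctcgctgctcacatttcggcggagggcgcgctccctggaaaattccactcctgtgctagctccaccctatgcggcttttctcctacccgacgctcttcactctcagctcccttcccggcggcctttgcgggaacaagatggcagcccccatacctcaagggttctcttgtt

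Of the 76 members, 67 had a window in the RefSeq table. The ETS motif stood in 28 of these, or 41.8%, against 10.2% of all 34943 windows of that length. The YY1 motif stood in 18 members (26.9%, against 2.75% of all windows), the NRF1 motif in 13 (19.4%, against 7.44%) and the E-box in 6 (8.96%, against 7.23%). Among the 48 members with a window that fell in all 4 comparisons, 17 held the ETS motif, 14 the YY1 motif, 10 the NRF1 motif and 4 the E-box. Among the other 19 the numbers were 11, 4, 3 and 2. Each member entered with a single window, while the background took every distinct window and was not limited to genes expressed in these libraries. The shares of members and of all windows are thus from unlike sets. A match is a description of letters, and no binding was measured.

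By role, the falls reached both subunits. In HCC4006 CTRL cells all 16 small-subunit proteins with bacterial counterparts fell, with a median of -0.74, and so did all 9 that are specific to mitochondria, with a median of -0.59. Of large-subunit proteins 27 of 30 with bacterial counterparts fell, with a median of -0.80, and 18 of 20 without, with a median of -0.58. In PC9 CTRL cells the counts lower were 12 of 16 and 8 of 9 in the small subunit, both with a median of -0.30, and 26 of 30 (median -0.36) and 11 of 20 (median -0.13) in the large subunit. The mitochondria-specific proteins of the large subunit thus had the median nearest 0 of the 4 classes in both lines, and the difference between classes was not tested.

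Single proteins of known function show the spread within those classes. MRPS12, the S12 counterpart at the decoding site, had 34.0, 39.6 and 42.3 FPKM in HCC4006 CTRL cells under OT, against 87.4, 91.4 and 88.0 FPKM under DMSO, a log2 change of -1.19 (adjusted p = 4.47e-09). PC9 CTRL cells had 60.9, 62.6 and 59.9 FPKM under OT, against 91.4, 89.3 and 84.8 FPKM under DMSO, a change of -0.53 (adjusted p = 2.12e-08). Its exons overlap SARS2 on the opposite strand, a gene at 6.90 to 11 FPKM. MRPL11, at the base of the stalk, changed by -0.92 in HCC4006 and -0.39 in PC9, MRPS34 by -0.88 and -0.26, MRPS30, which sits in the large subunit despite its name, by -1.02 and -0.20, and MRPS6 by -1.07 and -0.72. All of these were past the threshold in both lines. MRPS27, a pentatricopeptide repeat protein, changed by -0.61 in HCC4006 and by -0.13 in PC9 (adjusted p = 0.00638), and the PC9 call was lost when libraries were scaled by median of ratios (-0.03, adjusted p = 0.455).

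The S18 homologues and the plainer responders complete the fixed list. MRPS18C, in the small subunit, changed by -0.80 in HCC4006 CTRL cells and -0.29 in PC9 CTRL cells. MRPS18A, in the large subunit, changed by -0.21 and -0.24, and the HCC4006 value (adjusted p = 0.0364) was the weaker one. It came to 0.0039 (adjusted p = 0.962) when every library was rescaled to the same sum, and the call was lost with no filter on low values and without replicate 2 or 3 of the DMSO group or replicate 1 of the OT group (-0.17, -0.22 and -0.15). MRPL41 fell by 0.33 in HCC4006 and 0.35 in PC9 on the log2 scale, and in HCC4006 it was no longer past the threshold with the same sum (-0.10) and came to -0.21 (adjusted p = 0.00500) without replicate 1 of the OT group. MRPL44, which has a ribonuclease III-like fold, had 18.4, 23.6 and 22 FPKM in HCC4006 CTRL cells under OT, against 28.2, 28.3 and 28.0 FPKM under DMSO, a change of -0.39 (adjusted p = 0.000181). Its PC9 CTRL groups overlapped, at 69.4, 64.8 and 71.2 FPKM under OT against 68.0, 68.1 and 66.4 FPKM under DMSO, and the change was 0.02 (adjusted p = 0.637), or 0.12 (adjusted p = 0.0117) with median-of-ratios scaling. MRPS36, now known as a component of the oxoglutarate dehydrogenase complex, missed the threshold in all 4 comparisons, with changes from -0.09 to 0.09. In PC9 CTRL cells it was called higher with median-of-ratios scaling (0.18, adjusted p = 0.0221) and with the same sum (0.14, adjusted p = 0.0406). In HCC4006 CTRL cells it had 22.8, 28.7 and 26.0 FPKM under OT, against 25.8, 27.9 and 28.6 FPKM under DMSO.

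A few members went the other way. MRPL45, a protein that holds the ribosome at the inner membrane beside the exit of the nascent chain, was the 1 member called higher in all 4 comparisons. It had 41.4, 42.2 and 44.8 FPKM under OT in HCC4006 YAP1 KO cells, against 33.3, 35.0 and 35.1 FPKM under DMSO, a change of 0.30 (adjusted p = 0.00334). In HCC4006 CTRL cells it had 32.5, 41.2 and 41.2 FPKM under OT, against 31.9, 34.7 and 33.1 FPKM under DMSO. Replicate 1 overlapped the DMSO libraries there, the change was 0.19 (SE 0.0788, adjusted p = 0.0399), and it was 0.30 (adjusted p = 8.58e-05) without that library. The call in HCC4006 CTRL cells was lost without replicate 1 or 3 of the DMSO group or replicate 2 or 3 of the OT group (0.14 to 0.19), and with no filter on low values (adjusted p = 0.0619). PC9 gave 59.5, 62.7 and 60.1 FPKM under OT in YAP1 KO cells, against 50.7, 47.5 and 49.0 FPKM under DMSO, a change of 0.30 (adjusted p = 2.41e-05). In PC9 CTRL cells the values were 53.0, 53.8 and 55.5 FPKM against 43.6, 48.7 and 47.4 FPKM, a change of 0.21 (adjusted p = 0.000566). MRPL45 has 2 numbered pseudogenes in RefSeq.

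MRPL10, the stalk base protein that carries MRPL12, rose in 3 of the 4 comparisons. It had 41.7, 41.4 and 41.0 FPKM under OT in HCC4006 YAP1 KO cells, against 29.1, 26.8 and 26.6 FPKM under DMSO (0.57, adjusted p = 3.56e-07). HCC4006 CTRL cells had 29.1, 32.0 and 31.8 FPKM under OT, against 29.4, 30.5 and 28.1 FPKM under DMSO, so that the groups overlapped and the change of 0.07 was not called. In PC9 the gene had 51.6, 49.0 and 49.6 FPKM under OT in YAP1 KO cells, against 33.8, 32.4 and 34.3 FPKM under DMSO (0.57, adjusted p = 1.26e-08), and 37.3, 37.9 and 39.3 FPKM against 30.5, 32.2 and 30.7 FPKM in CTRL cells (0.28, adjusted p = 1.04e-05). MRPL10 and its partner MRPL12 thus moved in opposite directions in both lines of YAP1 KO cells and in PC9 CTRL cells. Of the remaining 20 members that did not fall in all 4 comparisons, MRPL33, MRPL54 and MRPS21 rose in PC9 CTRL cells, by 0.19, 0.14 and 0.13, and the others missed the threshold in 1 or more of the 4.

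**Figure D3:**
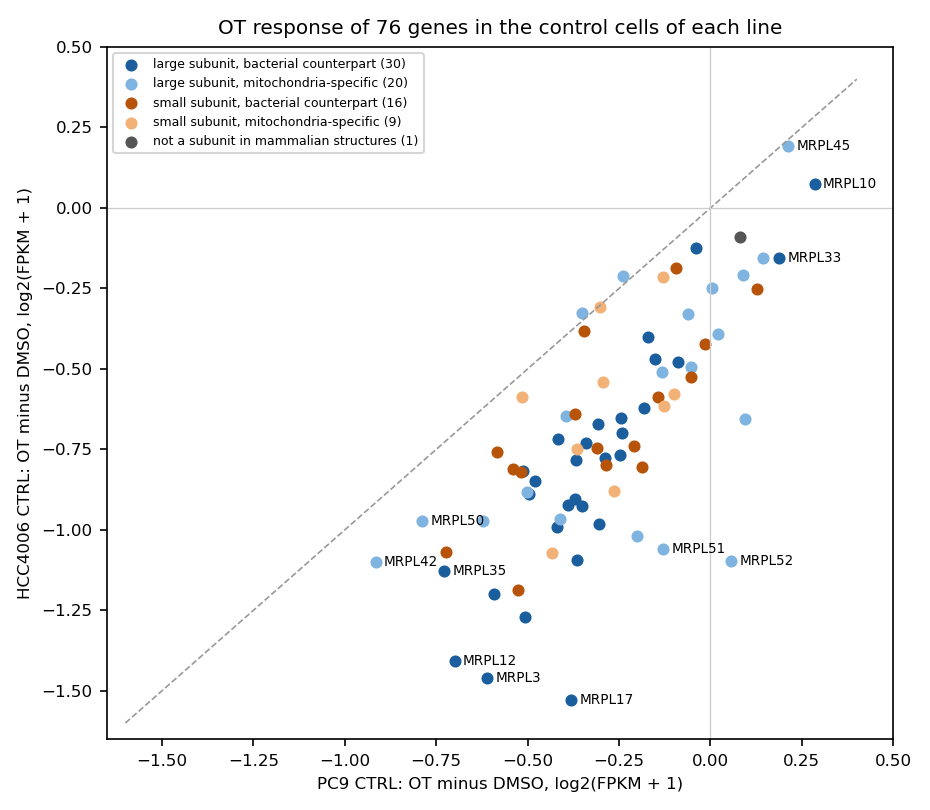
OT minus DMSO on the log2(FPKM + 1) scale for 76 genes, in CTRL cells of HCC4006 (vertical axis) and PC9 (horizontal axis), coloured by subunit and origin, with the line of equal change dashed. Nearly all points lie below the dashed line and below 0 in HCC4006, and MRPL45 and MRPL10 stand at the upper right.

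The response differed in size between the lines. The OT response of HCC4006 CTRL cells minus that of PC9 CTRL cells, tested in 1 fit of 24 libraries, was past the threshold and below 0 in 63 of 76 members and above 0 in 0 of 76, against 27.1% and 38.1% of all 11845 genes. At an unadjusted p under 0.05 there were 66 below 0. The median difference was -0.39, against 0.08 for all genes tested (0.22 with the same sum), and 74 of 76 members had the more negative response in HCC4006. With a filter of 5 FPKM, nearer the level of most members, the median of all genes was -0.0046, and 49.4% of those called were above 0. Without replicate 1 of HCC4006 CTRL cells under OT, the members' median was -0.33. Related gene groups shifted likewise in CTRL cells. Of nuclear oxidative phosphorylation genes 68 of 76 were lower (median -0.48), and of ribosome biogenesis genes 34 of 38 (median -0.52). Of cytosolic ribosomal protein genes 63 of 84 were lower (median -0.31). In YAP1 KO cells 48 members were lower and 1 higher (25.3% and 38.4% of all genes), with a median of -0.26 against 0.10. These counts depend on how libraries are scaled. With every library rescaled to the same sum, 47 in CTRL cells and 42 in YAP1 KO cells were lower, with medians of -0.23 and -0.17, and with median-of-ratios scaling 71 and 60, with medians of -0.50 and -0.40. Of all genes called 58.4% were above 0 in CTRL cells (72.2% with the same sum and 47.5% with median of ratios) and 60.3% in YAP1 KO cells (46.3% with median of ratios). Across the 76 genes the responses of the CTRL cells in the lines ran parallel, with a Pearson correlation of 0.738 (0.713 across 11845 genes), given as a description because genes are not independent and libraries are shared by all points.

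MRPL52, MRPL17 and MRPL51 differed most. MRPL52, a mitochondria-specific protein of the large subunit, had 36.9, 42.1 and 41.5 FPKM in HCC4006 CTRL cells under OT, against 86.7, 91.0 and 82.9 FPKM under DMSO, a change of -1.10 (adjusted p = 1.31e-09). The PC9 CTRL groups of MRPL52 overlapped, with 43.2, 46.8 and 46.4 FPKM under OT against 43.4, 44.5 and 42.9 FPKM under DMSO, a change of 0.06 (adjusted p = 0.282). The difference between the lines was -1.15 (SE 0.0714, adjusted p = 1.71e-11), and -1.18 in YAP1 KO cells (adjusted p = 1.04e-11). MRPL17 had 17.8, 19.4 and 18.1 FPKM in PC9 CTRL cells under OT, against 24.7, 24.5 and 23.7 FPKM under DMSO, and its response in HCC4006 minus that in PC9 was -1.15 (SE 0.0635, adjusted p = 2.97e-12) in CTRL cells and -0.85 (adjusted p = 3.32e-10) in YAP1 KO cells. MRPL51 had 144, 188 and 196 FPKM in HCC4006 CTRL cells under OT, against 367, 382 and 344 FPKM under DMSO (-1.06, adjusted p = 6.36e-07). PC9 CTRL cells had 489.7, 515 and 535 FPKM under OT, against 568, 554 and 561 FPKM under DMSO (-0.13, adjusted p = 0.00219), and the difference between the lines was -0.93 (SE 0.108, adjusted p = 2.64e-07). It was -0.81 (adjusted p = 1.66e-06) in YAP1 KO cells. The exons of MRPL51 overlap NCAPD2 on the opposite strand, at 5.93 to 70.5 FPKM. Against the rest, MRPL41 in YAP1 KO cells had the response that was higher in HCC4006, by 0.37 (adjusted p = 0.00346).

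Without drug the lines also set single members differently. In CTRL cells under DMSO 36 of 76 members were higher in HCC4006 than in PC9 and 28 lower, against 37.7% and 44.4% of all genes tested. The median difference was 0.09, against -0.06, so the set as a whole was shifted little. MRPL17 stood at 92.2, 95.0 and 89.5 FPKM in HCC4006 and at 24.7, 24.5 and 23.7 FPKM in PC9, a log2 difference of 1.88 (adjusted p = 3.27e-19). MRPL1, the counterpart of L1, had 55.6, 54.2 and 53.3 FPKM in HCC4006, against 27.2, 24.9 and 25.0 FPKM in PC9 (1.05, adjusted p = 4.69e-11), and MRPS18C differed by 1.02 (adjusted p = 2.14e-11). Lowest in HCC4006 relative to PC9 was MRPS15, the S15 counterpart, with 92.8, 99.1 and 87.9 FPKM against 234, 225 and 240.3 FPKM (-1.32, adjusted p = 8.85e-17). MRPS18A had 23.7, 26.6 and 24.6 FPKM in HCC4006, against 63.0, 62.8 and 64.2 FPKM in PC9 (-1.31, adjusted p = 1.04e-13), and MRPL2 differed by -1.28 (adjusted p = 6.15e-15). None of these groups overlapped, and 2 of the 3 S18 homologues therefore stood in opposite order in the lines, MRPS18C higher and MRPS18A lower in HCC4006.

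Fewer members differed between YAP1 KO and CTRL cells under DMSO than between OT and DMSO. With 1 knockout and 1 control background per line, loss of YAP1 cannot be told apart from other differences between these backgrounds. In HCC4006 under DMSO 6 members were higher and 3 lower in YAP1 KO cells, against 9.20% and 8.65% of all genes, with a median of 0.02 for members and for all genes. Of all genes called, 51.5% were higher, and 61.7% with every library rescaled to the same sum, where 11 members were higher. MRPS2 had 55.3, 52.6 and 54.1 FPKM in YAP1 KO cells, against 44.1, 47.3 and 43.3 FPKM in CTRL cells (0.26, adjusted p = 0.00649). MRPL40 and MRPS11 changed by 0.25 each (adjusted p = 0.0113 and 0.00694). The 3 that were lower, MRPS5 at -0.22, MRPS26 at -0.21 and MRPL30 at -0.15 (adjusted p = 0.0170, 0.0227 and 0.0281), lost their calls in 3, 4 and 5 of the fits that left out 1 library. None of the 3 was called without replicate 2 of CTRL cells or replicate 1 of YAP1 KO cells, and 1 without replicate 1 of CTRL cells or replicate 2 of YAP1 KO cells. The share of members called was no higher than the background share here.

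PC9 under DMSO had 20 members higher and 12 lower in YAP1 KO cells, against 19.8% and 20.0% of all genes, and medians of 0.06 and 0.01. MRPL42 had 24, 24.4 and 23.5 FPKM in YAP1 KO cells, against 19.1, 18.2 and 18.8 FPKM in CTRL cells (0.34, adjusted p = 0.00126). MRPL17 changed by 0.28 and MRPS17, the S17 counterpart, by 0.27 (adjusted p = 0.000360 and 0.000440). On the other side MRPL49 had 41.5, 43.2 and 41.7 FPKM in YAP1 KO cells, against 57.9, 57.9 and 60.6 FPKM in CTRL cells (-0.47, adjusted p = 5.26e-06). Its exons overlap FAU on the opposite strand, at 566 to 984 FPKM. MRPL20 had 116, 125 and 127 FPKM against 167, 160.2 and 161 FPKM (-0.41, adjusted p = 7.73e-05), and MRPS15 changed by -0.29 (adjusted p = 1.93e-05). The groups of MRPL42, MRPL49 and MRPL20 were apart. When the 24 libraries were fitted together, 13 members were higher.

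Under OT more members were called between the genotypes than under DMSO in both lines, and so were more of all genes. In HCC4006 12 members were higher and 11 lower in YAP1 KO cells, both below the background of 27.2% and 16.4% of all genes, with medians of 0.03 and 0.06. The higher share of all genes called was 62.3%, and 48.5% with median-of-ratios scaling, where 7 members were higher. Without replicate 1 of CTRL cells under OT the lower count was 17 and the median -0.06, without replicate 2 it was 6, and without replicate 1 of YAP1 KO cells it was 7. The share of all genes called was not taken in these fits, so whether these counts lie below the background is not known. MRPL33 stood out, with 210.1, 208.9 and 211.9 FPKM in YAP1 KO cells, against 362, 429.6 and 471 FPKM in CTRL cells, a change of -0.99 (SE 0.0773, adjusted p = 1.24e-06). Its YAP1 KO libraries lay close together and far below all CTRL libraries. MRPL14, the L14 counterpart, had 107, 112 and 109 FPKM against 137, 174 and 164 FPKM (-0.53, adjusted p = 0.000139), and MRPS9 had 22.9, 23.1 and 22.9 FPKM against 24.5, 32.3 and 38.2 FPKM (-0.43, adjusted p = 0.00911). Higher in YAP1 KO cells were MRPL46 with 37.0, 37.3 and 43.6 FPKM, against 22.8, 31.5 and 27.7 FPKM in CTRL cells (0.52, adjusted p = 0.00111), and MRPL41 with 199, 209 and 208 FPKM, against 123, 167 and 152 FPKM (0.48, adjusted p = 0.000956). MRPL10 followed at 0.41 (adjusted p = 5.46e-05). In each of these genes replicate 1 was the lowest of the CTRL libraries. Without it the changes were -1.09 for MRPL33, -0.63 for MRPL14 and -0.59 for MRPS9. They were 0.40 for MRPL46, 0.36 for MRPL41 and 0.36 for MRPL10, and all kept their calls.

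PC9 under OT had 7 members higher and 31 lower in YAP1 KO cells, against 28.5% and 25.2% of all genes, so that the share higher was below the background and the share lower above it. The median was -0.08, against 0.02. Nuclear oxidative phosphorylation genes had 30 of 76 lower and 14 higher there, and ribosome biogenesis genes 15 of 38 lower and 6 higher. Cytosolic ribosomal protein genes had 18 of 84 lower and 27 higher. MRPL16, the L16 counterpart, had 33.1, 34.9 and 33.9 FPKM in YAP1 KO cells, against 50.6, 50.6 and 48.9 FPKM in CTRL cells (-0.55, adjusted p = 2.48e-08). MRPL20 had 81.2, 90.2 and 80.7 FPKM against 119, 132 and 131 FPKM (-0.59, adjusted p = 1.89e-06), and MRPL49 had 38.4, 39.2 and 42.5 FPKM against 59.8, 54.6 and 55.6 FPKM (-0.49, adjusted p = 1.96e-06). These 3 were clear of their CTRL libraries, and MRPL49 and MRPL20 were also the lowest under DMSO. Among the 7 that were higher, MRPL10 changed by 0.38 (adjusted p = 2.25e-06), MRPS30 by 0.18 (adjusted p = 0.000830) and MRPL45 by 0.17 (adjusted p = 0.00512).

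The interaction, the OT response of YAP1 KO cells minus that of CTRL cells, asks whether the drug response differed between these cells. In PC9 it was below 0 in 68 of 76 members, and 21 passed the threshold below 0 and 1 above it, against 13.8% and 13.2% of all genes. The median was -0.12, against 0.01 for all genes tested. Related gene groups had similar values in PC9. Of cytosolic ribosomal protein genes 39 of 84 passed the threshold below 0 (median -0.10), of nuclear oxidative phosphorylation genes 27 of 76 (median -0.12) and of ribosome biogenesis genes 13 of 38 (median -0.14). Of all genes called 48.9% were above 0, and 60.7% with every library rescaled to the same sum, where the members' median was -0.08. Of the 21 genes 16 belong to the classes with bacterial counterparts, 12 of them in the large subunit. Those classes hold 30 large-subunit and 16 small-subunit members of the 76, and the difference between classes was not tested. MRPL15 and MRPL33 were lowest at -0.41 each (SE 0.0563 and 0.0654, adjusted p = 0.000238 and 0.000708), followed by MRPL17 at -0.34 (SE 0.0634, adjusted p = 0.00192). MRPL12 was among them at -0.33 (adjusted p = 5.96e-05). In MRPL17 the YAP1 KO cells had 18.9, 17.0 and 17.1 FPKM under OT, against 29.3, 29.7 and 30.5 FPKM under DMSO, so that the genotypes were near each other under OT and apart under DMSO. MRPL33 had 244.9, 255 and 234 FPKM under OT in YAP1 KO cells, against 266, 300.2 and 292 FPKM under DMSO, while in CTRL cells it had 297, 286 and 299.9 FPKM under OT, against 261, 248 and 266 FPKM under DMSO.

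In HCC4006 the interaction had no common sign, with 1 member above 0 and 2 below 0 past the threshold, against 10.5% and 8.18% of all genes, and a median of -0.00070 against 0.04. Of all genes called 56.1% were above 0, and 44.6% with median-of-ratios scaling. Those below 0 were MRPL33 at -0.76 (SE 0.109, adjusted p = 0.000568) and MRPL14 at -0.41 (SE 0.105, adjusted p = 0.0171). MRPL33 had 210.1, 208.9 and 211.9 FPKM under OT in YAP1 KO cells, against 385, 413.5 and 392 FPKM under DMSO, while CTRL cells had 362, 429.6 and 471 FPKM under OT, against 461, 487 and 452 FPKM under DMSO. The gene thus changed by -0.91 in YAP1 KO cells (adjusted p = 2.44e-07) and by -0.16 in CTRL cells (adjusted p = 0.0792). Its exons overlap BABAM2 on the same strand, a symbol with no row. MRPL10 was above 0 at 0.50 (SE 0.0714, adjusted p = 0.000532), as it was in PC9 at 0.28 (SE 0.0486, adjusted p = 0.00128). All 3 genes passed the threshold in the same direction in both lines, since MRPL14 was also among the 21 in PC9. Without replicate 1 of HCC4006 CTRL cells under OT, 10 members passed the threshold below 0 and the median was -0.06. Without replicate 2 or 3 of that group 2 members passed it above 0. The share of all genes was not taken in these fits, so the lack of a common sign rests on the fit of all libraries.

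**Figure D4:**
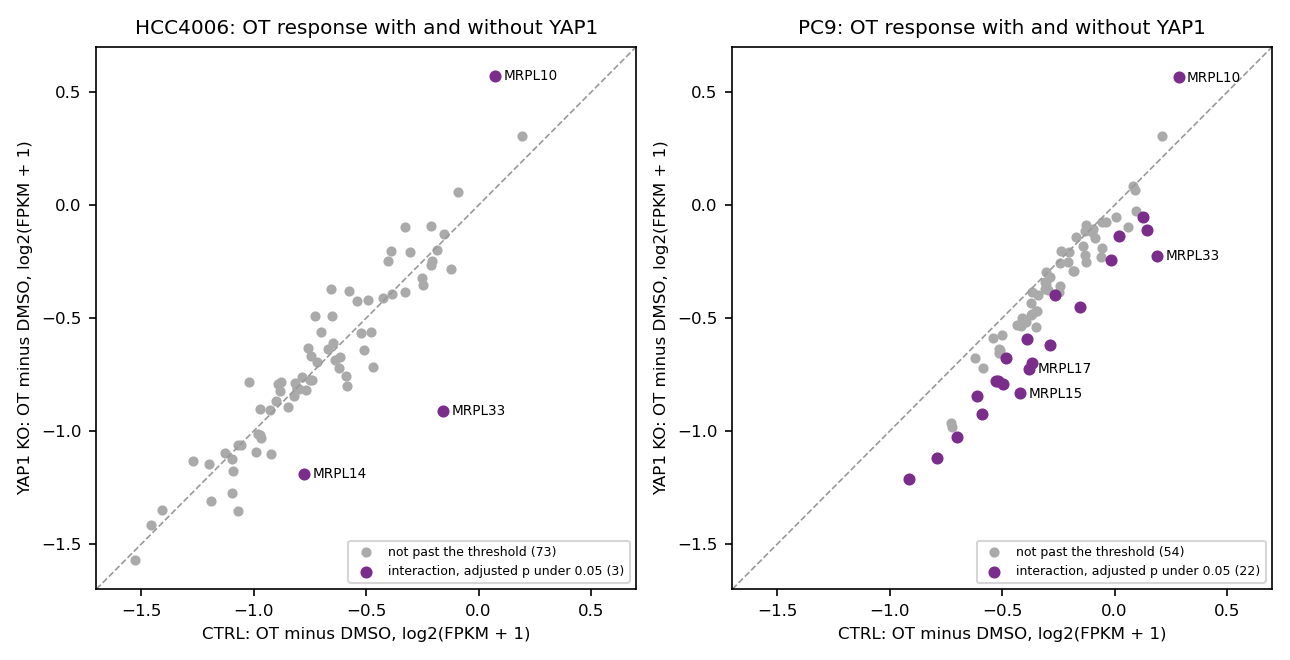
OT minus DMSO on the log2(FPKM + 1) scale in YAP1 KO cells (vertical axis) and CTRL cells (horizontal axis) for 76 genes, HCC4006 on the left and PC9 on the right, with the line of equal change dashed and genes past the threshold of the interaction in purple. In PC9 68 points lie below the dashed line, and in HCC4006 3 genes are past the threshold.

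The difference between YAP1 KO and CTRL cells, called the knockout effect here, was not the same in the lines for some members. The knockouts carry different marks in the lines, so a difference of line and one of knockout cannot be told apart. Under DMSO the difference, HCC4006 minus PC9, was above 0 in 11 members and below 0 in 11 past the threshold, against 16.7% and 13.3% of all genes. The count above 0 was 6 without replicate 3 of CTRL cells under DMSO in either line and 7 without replicate 3 of HCC4006 YAP1 KO cells, and that below 0 was 6 without the same YAP1 KO library and 7 without replicate 2 of HCC4006 CTRL cells or of PC9 YAP1 KO cells under DMSO. Under OT 23 members passed the threshold above 0 and 4 below 0, against 25.4% and 17.1% of all genes. Without replicate 1 of HCC4006 CTRL cells under OT, 7 passed it below 0. MRPL20 differed by 0.42 under DMSO and 0.63 under OT (adjusted p = 0.00338 and 4.50e-05), MRPL49 by 0.51 under DMSO (adjusted p = 8.60e-06), MRPL16 by 0.66 under OT (adjusted p = 2.28e-06) and MRPL41 by 0.60 under OT (adjusted p = 7.89e-05). In the other direction MRPL33 differed by -0.38 under DMSO and -0.72 under OT (adjusted p = 0.00420 and 3.17e-06), and MRPS26 by -0.35 and -0.36 (adjusted p = 0.000401 and 0.000189). MRPS26 was lower in YAP1 KO cells of HCC4006 (-0.21) and higher in those of PC9 (0.14), with 95.7, 102 and 108 FPKM in YAP1 KO cells against 117, 123 and 114 FPKM in CTRL cells of HCC4006 under DMSO, and 96.1, 94.1 and 89.7 FPKM against 87.8, 84.8 and 81.1 FPKM in PC9.

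Among genes for proteins that build, load and serve the mitochondrial ribosome, each of 6 lists had more members lower than higher under OT in CTRL cells of both lines. Over all genes tested 36.6% fell and 45.0% rose in HCC4006, and 40.9% fell and 32.0% rose in PC9. Nearest to the shares that fell were the tRNA synthetases in PC9, with 10 of 19 lower, and the nuclear regulators in HCC4006, with 6 of 12 lower and 4 higher. Of 7 genes listed as subunits with other symbols 6 fell and 1 rose in each line, with a median of -0.76 in HCC4006 and -0.22 in PC9. GADD45GIP1, a large-subunit protein, averaged 72.4 ± 7.46 FPKM under OT and 159 ± 8.25 FPKM under DMSO in HCC4006, and 165 ± 9.04 and 218 ± 11.4 FPKM in PC9, log2 changes of -1.13 and -0.40. ICT1, a peptidyl-tRNA hydrolase built into the large subunit, changed by -0.92 and -0.51, and DAP3, the GTP-binding protein of the small subunit, by -0.76 and -0.28. The 1 that rose was OXA1L, by 0.18 in HCC4006 and 0.52 in PC9. It is the insertase that receives nascent chains at the inner membrane and not itself a ribosomal subunit.

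Among 25 assembly factors 17 fell and 2 rose in HCC4006 (median -0.44), and 15 fell and 2 rose in PC9 (median -0.18). FTSJ2 and MRM1, methyltransferases of the ribosomal RNA, changed by -1.01 and -0.82 in HCC4006 and by -0.71 and -0.66 in PC9, and the assembly protein MPV17L2 by -1.04 and -0.62. The GTPase NOA1 rose by 0.77 and 0.57, and YBEY, an RNA-processing enzyme in bacteria, by 0.40 and 0.27. Of 14 translation factors 8 fell and 2 rose in HCC4006 (median -0.34), and 11 fell and 1 rose in PC9 (median -0.26). PDF, which removes formyl groups from new proteins, changed by -1.03 and -1.01, the elongation factor GFM1 by -0.95 and -0.46, and MTFMT, which formylates the initiator tRNA, by -0.67 and -0.35. Initiation factor MTIF3 rose by 0.57 in HCC4006 and 0.35 in PC9. Of the genes for mitochondrial aminoacyl-tRNA synthetases and related enzymes, 20 listed and 19 tested, 13 fell and 2 rose in HCC4006 (median -0.24), and 10 fell and 2 rose in PC9 (median -0.18). MARS2 and AARS2 changed by -0.84 and -0.86 in HCC4006 and by -0.79 and -0.44 in PC9, while HARS2 rose by 0.51 and 0.21 and PARS2 by 0.29 and 0.42.

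Of 19 genes of mitochondrial transcription and RNA handling 17 fell in HCC4006 (median -0.62) and 15 in PC9 (median -0.24), and the highest changes were -0.11 and 0.01. TFAM, which packages mitochondrial DNA and starts its transcription, averaged 7.83 ± 0.317 FPKM under OT and 22 ± 1.25 FPKM under DMSO in HCC4006 CTRL cells, a change of -1.38 (adjusted p = 1.24e-10). PC9 CTRL cells had 9.71 ± 0.623 FPKM under OT and 21.3 ± 0.439 FPKM under DMSO, a change of -1.06 (adjusted p = 5.73e-10). PNPT1, the mitochondrial polynucleotide phosphorylase, changed by -1.46 and -0.95, and SLIRP, the partner of LRPPRC on mitochondrial messages, by -1.54 and -0.46. The nuclear regulators of mitochondrial genes, 14 listed and 12 tested, had 6 lower and 4 higher in HCC4006 (median -0.17), and 10 lower and 1 higher in PC9 (median -0.31). MYC averaged 1.92 ± 0.302 FPKM under OT and 11.5 ± 0.237 FPKM under DMSO in HCC4006, against 27.9 ± 0.847 and 41.0 ± 1.17 FPKM in PC9, changes of -2.10 and -0.54. GABPB1, a subunit of the ETS factor GABP, changed by -0.70 and -0.83, and PPRC1, a coactivator related to PGC-1, by -0.74 and -0.79. ATF4, a transcription factor of the stress response, rose by 0.58 in HCC4006 and fell by 0.22 in PC9, and ESRRA, an orphan nuclear receptor, rose by 0.50 and fell by 0.37.

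By median change, the mitochondrial ribosome lay between the cytosolic ribosome and the genes that assemble it. The 84 genes of cytosolic ribosomal proteins had 57 lower and 5 higher under OT in HCC4006 CTRL cells, with a median of -0.30, and 14 lower and 27 higher in PC9 CTRL cells, with a median of 0.0020. Nuclear genes of oxidative phosphorylation, whose products join those made on mitochondrial ribosomes, had 66 of 78 lower and 2 higher in HCC4006 (median -0.51), and 26 of 76 lower and 27 higher in PC9 (median 0.03). Of 38 genes of ribosome biogenesis and the nucleolus 36 fell in HCC4006, with a median of -1.26, and 35 fell and 1 rose in PC9, with a median of -0.67. In PC9 CTRL cells the mitochondrial ribosomal genes thus had 57 of 76 lower, against 40.9% lower and 32.0% higher of all genes. The cytosolic ribosomal genes had more higher than lower, and the oxidative phosphorylation genes were nearly even, at 27 higher and 26 lower. PC9 YAP1 KO cells did not show that contrast in the direction of the calls. There 65 of 76 mitochondrial ribosomal genes were lower and 2 higher, 53 of 84 cytosolic ribosomal genes were lower and 9 higher, and 45 of 76 oxidative phosphorylation genes were lower and 17 higher, against 41.4% and 36.9% of all genes. The medians there were -0.38, -0.07 and -0.15 in the same order, against -0.30, 0.0020 and 0.03 in PC9 CTRL cells. The mitochondrial ribosomal genes thus kept the lowest of these medians in both genotypes. These counts and medians describe the groups, and the difference between groups was not tested. The other scalings were not applied to the related groups.

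**Figure D5:**
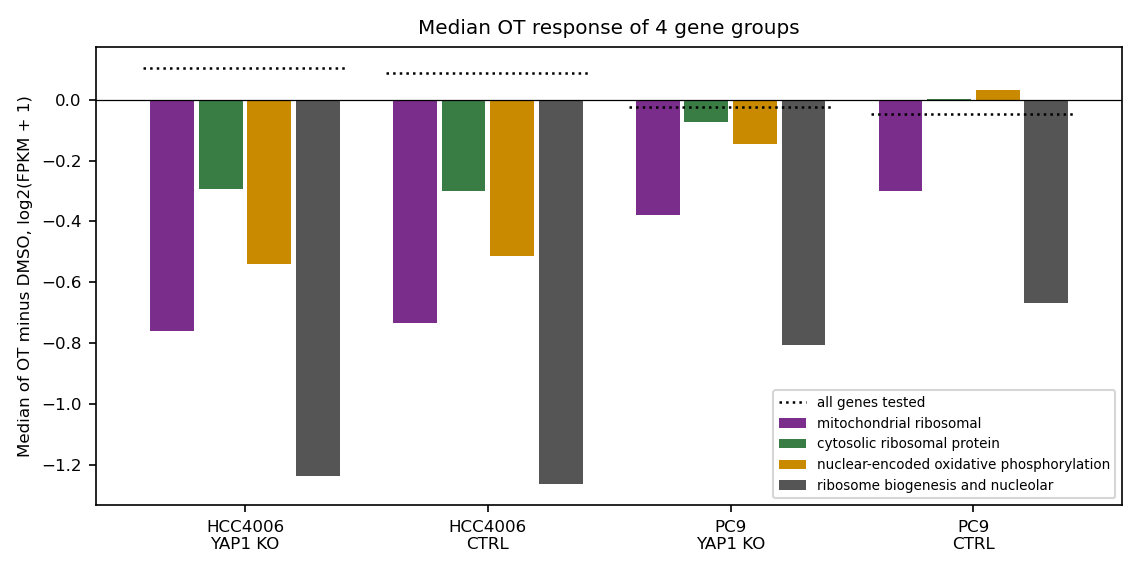
Median OT minus DMSO on the log2(FPKM + 1) scale for 4 gene groups in YAP1 KO and CTRL cells of HCC4006 and PC9, with the median of all genes tested dotted. The medians of mitochondrial ribosomal genes run from -0.76 to -0.30 and lie above those of ribosome biogenesis genes and below those of cytosolic ribosomal protein genes in all 4.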

How the data were processed

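Messenger RNA of 24 libraries was analysed, 12 per line. Cells were lysed in TRIzol and the kit for library preparation was a stranded one for mRNA, per the labels' protocols. All values come from 1 FPKM table that the authors deposited, with a column for each library. DESeq2 1.10.1, Cufflinks 2.2.1 and STAR 2.5.1b are named in the submitters' processing notes, as are the builds hg19 and GRCh37, without a role or order. The annotation and the strand used in counting are not given in the sources used here. FPKM are not counts, so depth gives no interval here.

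The test was that of limma (3.58.1, under R 4.3.3), two-sided, on log2(FPKM + 1), a scale that understates the change of low genes. Each line's 12 libraries were fitted with group means and a trended prior. Contrasts between lines used 1 fit of 24 libraries. Genes needed 1 FPKM in at least 3 libraries of the line, or of each line for contrasts between lines. P-values were adjusted by Benjamini-Hochberg over all genes tested, and a call needed an adjusted p under 0.05. There were 5 comparisons per line and 5 between lines. The test was tried on simulated data.

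The members and lists were chosen with earlier results of these data known. The genes named are the 3 highest and 3 lowest members called per comparison, the 3 highest and lowest in level, members near the level threshold, those called against the majority under OT, up to 3 per pathway list with the largest mean change, and MRPL12, MRPS12, MRPL11, MRPL44, MRPS6, MRPL41, MRPS27, MRPS34, MRPS18A, MRPS18B, MRPS18C, MRPS30 and MRPS36. Pathway genes that rose, the neighbours of MRPS18B and genes with overlapping exons were named after their values were seen. In the alternatives, the pseudocount was 0.1 or 0.01, the filter 5 FPKM or none, libraries were scaled by median of ratios or to the same sum, 24 libraries were fitted together, a replicate block was added, or 1 library was left out. Promoters and pseudogenes are from RefSeq (GRCh38.p14), and exon overlaps from GENCODE 29 on GRCh38, which is not the authors' build. For MRPL10, MRPL13, MRPL15, MRPL2, MRPL21, MRPL23, MRPL35, MRPS28 and MRPS36 no promoter was used here.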

Additional observations from a re-analysis of the deposited data

Results flagged for a closer look

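The tests of a difference between responses marked 26 results for a second look. In the interaction of genotype and drug they were MRPL33 at -0.76, MRPL14 at -0.41 and MRPL10 at 0.50 in HCC4006, and MRPL15 at -0.41, MRPL33 at -0.41, MRPL17 at -0.34 and MRPL10 at 0.28 in PC9, on the log2 scale. In the OT response of HCC4006 minus that of PC9 they were MRPL52 at -1.15, MRPL17 at -1.15 and MRPL51 at -0.93 in CTRL cells. In YAP1 KO cells they were MRPL52 at -1.18, MRPL17 at -0.85, MRPL51 at -0.81 and MRPL41 at 0.37. In the YAP1 KO effect of HCC4006 minus that of PC9 they were MRPL49 at 0.51, MRPL20 at 0.42, MRPL11 at 0.38, MRPL33 at -0.38, MRPS26 at -0.35 and MRPL32 at -0.29 under DMSO. Under OT they were MRPL16 at 0.66, MRPL20 at 0.63, MRPL41 at 0.60, MRPL33 at -0.72, MRPS9 at -0.41 and MRPS26 at -0.36. Without replicate 1 of HCC4006 CTRL cells under OT, the HCC4006 interaction came to -0.86 for MRPL33, -0.51 for MRPL14 and 0.45 for MRPL10. The difference in OT response of CTRL cells then came to -1.09 for MRPL52, -1.10 for MRPL17 and -0.79 for MRPL51. The difference in YAP1 KO effect under OT came to 0.57 for MRPL16, 0.51 for MRPL20 and 0.48 for MRPL41. It came to -0.83 for MRPL33, -0.57 for MRPS9 and -0.41 for MRPS26.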

How the results depend on the processing

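Of 135 results for named genes, all kept direction and call with a pseudocount of 0.1 or 0.01 and with the replicate block, as did the 129 that remained with a filter of 5 FPKM. The replicate numbers showed no strong pairing of the libraries. Correlations of same-numbered deviations ran from -0.150 to 0.236 in HCC4006 (median 0.049, against -0.029 for different numbers). In PC9 they ran from -0.264 to 0.161 (median 0.0031, against -0.0025). A weak pairing would not be seen this way, and the labels do not settle it. The replicate block gave 57 members lower and 5 higher under OT in PC9 CTRL cells, as without it. Scaling mattered most, and the median of all genes moved with it. Rescaled to the same sum, it was 0.28 instead of 0.09 for OT in HCC4006 CTRL cells, 0.28 instead of 0.11 in HCC4006 YAP1 KO cells and 0.22 instead of 0.08 for the difference between lines in CTRL cells, and with median of ratios it was -0.02 instead of 0.10 for that difference in YAP1 KO cells.

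With the same sum, members higher under OT numbered 2 in HCC4006 CTRL cells, 4 in HCC4006 YAP1 KO cells, 9 in PC9 CTRL cells and 4 in PC9 YAP1 KO cells, with medians of -0.51, -0.57, -0.24 and -0.28. The knockout gave 11 higher and a median of 0.055 in HCC4006 under DMSO, and a median of -0.039 in PC9 under OT. The interaction gave 4 lower in HCC4006 and a median of -0.076 in PC9. HCC4006 against PC9 had a median of 0.018, the difference in OT response 3 higher (CTRL, median -0.23) and 2 higher (YAP1 KO, median -0.17), and the difference in knockout effect a median of 0.029 under DMSO and 8 lower under OT. MRPS18A (0.0039) and MRPS36 (0.13) turned positive under OT in HCC4006 CTRL cells, by the scaling itself. With median of ratios, OT gave 10 and 4 higher in PC9 CTRL and YAP1 KO cells (medians -0.20 and -0.30) and a median of -0.82 in HCC4006 YAP1 KO cells. The knockout gave a median of 0.0026 under DMSO and 7 higher under OT in HCC4006. The medians of HCC4006 against PC9 and of the difference in OT response were 0.15, -0.50 (CTRL) and -0.40 (YAP1 KO), and the difference in knockout effect had a median of -0.031 under DMSO and 9 lower under OT. With no filter 0 members rose in HCC4006 CTRL cells. Fitting 24 libraries together gave 3 higher under OT in PC9 CTRL cells, 13 higher in PC9 YAP1 KO cells under DMSO, 6 lower in HCC4006 YAP1 KO cells under DMSO and 2 higher in the HCC4006 interaction. Apart from scaling, the cause was not tested.

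Leaving out 1 library, members higher under OT ranged from 0 to 2 in HCC4006 CTRL cells and from 3 (without OT replicate 3) to 5 in PC9 CTRL cells (median -0.307 to -0.275). In HCC4006 the knockout gave 0 to 2 lower under DMSO (median 0.0069 to 0.036) and 6 to 17 lower under OT, and the interaction 1 to 2 higher and 2 to 10 lower. The median for PC9 under OT ran from -0.103 to -0.070 and that of HCC4006 against PC9 from 0.073 to 0.110. The difference in knockout effect gave 6 to 11 higher and 6 to 9 lower under DMSO (median -0.035 to 0.0073) and 3 to 7 lower under OT (median 0.0029 to 0.148). No share of all genes was taken for the fits that left out 1 library, so their counts have no background beside them. The change of MRPL44 in PC9 CTRL cells ran from -0.0089 (without OT replicate 3) to 0.058. FPKM carry no depth, and 41 of 76 members have a pseudogene in RefSeq, so low values and shared reads limit what the levels can show.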
